A study of Mus musculus with 6 samples.

Results

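The clustered histone genes are the multicopy genes for the linker histone H1 and the core histones H2A, H2B, H3 and H4. They were taken as every gene symbol that starts with Hist1h, Hist2h, Hist3h or Hist4h, which gave 68 of the 24346 symbols measured. The number after Hist names the gene cluster, with 54 members in cluster 1, 10 in cluster 2, 3 in cluster 3 and 1 in cluster 4. By histone type there were 6 genes for H1, 18 for H2A, 19 for H2B, 12 for H3 and 13 for H4. RNA sequencing gave their transcript levels in follicular (Fo) B cells, the recirculating mature B cells of the spleen, sorted as B220+ CD93- CD21lo CD23hi cells at a mouse age of 8 weeks. The G9gl group held 3 libraries from G9gl homozygotes, whose heavy and light chain (HL) genes are knocked in, and the WT group held 3 libraries from B6 control mice. G9gl is the germline form of an anti-dsDNA antibody that was isolated from a patient with lupus, and the design asks how B cells that carry it, described as anergic, differ in gene expression from WT. The labels leave it unsaid whether the 3 libraries per genotype are different animals, so a p-value here measures spread between samples that could be technical.

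Most clustered histone genes are made for DNA replication: their mRNAs accumulate when a cell enters S phase and are degraded when replication ends. These mRNAs carry no poly(A) tail. They end a few bases after a conserved stem-loop that the stem-loop binding protein Slbp holds, and the U7 small nuclear ribonucleoprotein guides the cut. Some of these genes also give polyadenylated transcripts that run past the stem-loop, which is known from mammalian cells that have left the cell cycle. Replacement histones are encoded by single genes outside the clusters. Many of them, such as H3f3a and H2afz, are polyadenylated and made throughout the cell cycle. The libraries were made with a kit whose first step primes cDNA synthesis on poly(A), for which a transcript that ends at the stem-loop is a poor template. The share of such transcripts in the values below was not tested.

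The stem-loop is shown because it divides the members by where their annotated transcripts end relative to it. It was searched in the annotated 3′ end of each member as a run of 16 bases on the coding strand that starts with GG and ends with CC, with 6 paired positions around a loop of 4 bases whose first and the third base are T, in the GENCODE vM21 annotation of GRCm38 (mm10). It was found in 46 of the 52 members with an annotated 3′ end, against 0.51% of 58725 other protein-coding transcripts. These rates differ in unit. Each member was counted once, by a transcript with a stem-loop where it had one, whereas every other transcript was counted, whatever the length of its 3′ end. The run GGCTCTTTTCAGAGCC was the most frequent, in 26 members, followed by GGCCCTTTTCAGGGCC in 7 members. Below, the 16 bases are in capitals with 5 bases on each side, for members that fell in G9gl and for the pair with the highest levels, Hist3h2a and Hist1h4c. The 3 H1 genes share 1 run, and of the 4 H4 genes shown Hist1h4i carries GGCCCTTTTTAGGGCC and the others the second run.
Hist1h1c, chr13:23739507-23739532, plus strand: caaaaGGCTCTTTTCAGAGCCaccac
Hist1h1d, chr13:23555782-23555807, plus strand: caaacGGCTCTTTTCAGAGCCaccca
Hist1h1e, chr13:23621777-23621802, minus strand: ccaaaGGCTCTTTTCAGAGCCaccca
Hist1h2ac, chr13:23683472-23683497, minus strand: ccaaaGGCTCTTTTCAGAGCCcccac
Hist1h4d, chr13:23581945-23581970, plus strand: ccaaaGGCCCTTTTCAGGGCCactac
Hist1h4h, chr13:23531453-23531478, plus strand: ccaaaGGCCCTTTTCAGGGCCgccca
Hist1h4i, chr13:22040961-22040986, minus strand: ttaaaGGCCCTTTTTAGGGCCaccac
Hist3h2ba, chr11:58949344-58949369, plus strand: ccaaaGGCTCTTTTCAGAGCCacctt
Hist3h2a, chr11:58955167-58955192, plus strand: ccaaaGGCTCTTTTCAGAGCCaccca
Hist1h4c, chr13:23698084-23698109, minus strand: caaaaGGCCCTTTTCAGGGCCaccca

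Clustered histone transcripts were lower in G9gl than in WT Fo B cells. The values of all 68 members summed to 165.3, 132.9 and 127.7 FPKM in the G9gl libraries, against 257.4, 203.8 and 217.1 FPKM in the WT libraries. FPKM counts the fragments of a gene per kilobase of its transcript, relative to all mapped fragments, so levels of different genes can be set side by side. The sum was 142 ± 20.4 FPKM in G9gl and 226.1 ± 27.9 FPKM in WT (SD, n = 3 each), 37.2% lower in G9gl, and the highest G9gl library was below the lowest WT library. In these bulk samples, fewer cells that make a histone mRNA and less of that mRNA per cell cannot be told apart.

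The level was low in both genotypes. The members held 0.0194 to 0.0246% of the FPKM of a G9gl library and 0.0338 to 0.0421% of that of a WT library. Of the 68 members, 17 were listed at 0 in all 6 libraries, 51 were above 0 in at least 1 library, 24 were above 0 in all 6 and 14 reached 1 FPKM in all 6. Among the members at 0 were Hist1h1t, Hist1h2aa and Hist1h2ba, which encode the histones of male germ cells. A few genes carried most of the signal: 8 members held 73.3% of the mean sum, and Hist3h2a alone held 20.1%. Levels rested on an estimated 9380000 to 10950000 fragments per G9gl library and 9410000 to 10180000 per WT library.

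Of the 23 members that reached 1 FPKM in at least 3 libraries and were tested, 9 fell in G9gl, 0 rose and 14 did not pass (limma, adjusted p under 0.05 over all genes tested). Fallen members made up 39.1% of those tested, against 11.6% called lower and 11.8% called higher among all 10122 genes tested. At an unadjusted p under 0.05, 11 members were lower and 1, Hist1h3i, was higher. The log2 fold change of G9gl over WT was below 0 in 20 of the 23, with a median of -0.63, against -0.0022 over all genes tested. In 10 of the 23 members every G9gl library was below every WT library, which 20.5% of all genes tested also showed. Of the 23, 5 met the filter through their WT libraries alone (Hist1h1d, Hist1h2ac, Hist1h2bg, Hist1h3e and Hist1h4h), of which 3 fell, and 0 met it through their G9gl libraries alone. A member that enters this way is one that is low in G9gl, so the counts and the median over tested members are a description. Of the 14 members that either genotype alone would have let through, 6 fell. Without the first or the third WT library the number that fell was 5, without the second G9gl library it was 6, and over all left-out libraries it was 5 to 11.

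**Figure D1:**
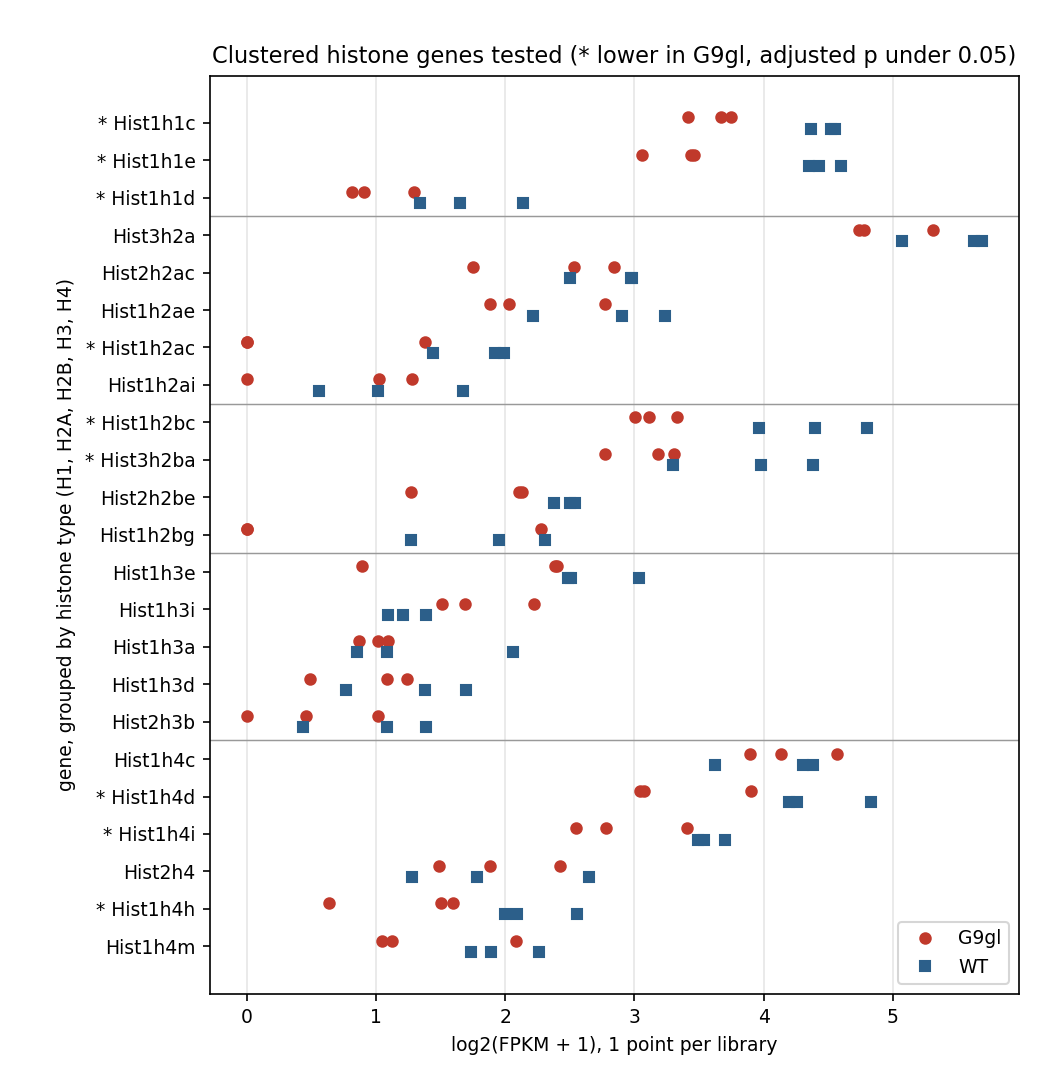
Levels of the 23 tested clustered histone genes as log2(FPKM + 1), 1 point per library, with G9gl circles drawn above WT squares and genes grouped by histone type from H1 at the top to H4 at the bottom. Asterisks mark the 9 genes that fell in G9gl at a limma adjusted p under 0.05. For Hist1h1c, Hist1h1e and Hist1h2bc a wide gap separates the genotypes, Hist1h3i lies to the right in G9gl, and the points of 2 G9gl libraries at 0 coincide for Hist1h2ac and for Hist1h2bg.

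All 3 linker histone genes tested fell in G9gl, against 11.6% called lower among all genes tested. Of the 3, Hist1h1d met the filter through its WT libraries alone, so this count is a description. H1 binds the DNA between nucleosomes and compacts chromatin, and somatic cells use several H1 subtypes from cluster 1. Hist1h1e had 9.99, 9.85 and 7.35 FPKM in G9gl, against 23.2, 20.5 and 19.4 FPKM in WT. All G9gl values were below all WT values, and the gene was 2.203-fold lower in G9gl (log2 fold change -1.14 ± 0.12 SE, limma adjusted p = 0.0002024). Exons of Hist1h1e overlap exons of Hist1h2be and Gm11398 in the annotation used, and the effect on its values was not tested. Hist1h1c had 12.4, 9.66 and 11.7 FPKM in G9gl, against 19.6, 22.4 and 21.9 FPKM in WT. Its libraries did not overlap either, with a 1.83-fold lower level in G9gl (log2 fold change -0.87 ± 0.10 SE, limma adjusted p = 0.0003914). Hist1h1d was a low member, at 0.872, 1.45 and 0.763 FPKM in G9gl and 1.53, 2.15 and 3.41 FPKM in WT. It fell by 0.71 ± 0.22 (SE) on the log2 scale (limma adjusted p = 0.04408), with a log2 fold change of -1.10 at a pseudocount of 0.1, and the call was lost without the first G9gl library (adjusted p = 0.08697), the third G9gl library (0.1228), the second WT library (0.09705) or the third WT library (0.1278).

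The other H1 genes were not tested. Hist1h1b had 0.841, 0.31 and 0.736 FPKM in G9gl and 1.65, 1.21 and 0.913 FPKM in WT, with no overlap. Hist1h1a had 0.372, 1.03 and 0.407 FPKM in G9gl and 0.543, 0.381 and 0.202 FPKM in WT, with overlap. The 6 H1 genes summed to 24.5, 22.3 and 20.95 FPKM in G9gl, against 46.6, 46.7 and 45.9 FPKM in WT. This was 51.3% lower in G9gl, and the 3 WT libraries lay within 1 FPKM of each other.

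The promoters of the 2 most abundant H1 genes and of Hist1h2ac are shown because their genes fell together. Each line gives the 250 bases before the annotated start, from RefSeq on GRCm38.p6, and 61 of the 68 members matched a promoter entry. Capitals mark 4 motifs searched on both strands: the TATA box TATAAA, the CCAAT box, the octamer ATTTGCAT of Oct factors, and AAACACA, known as the H1 box of linker histone promoters. A motif on the opposite strand appears as its reverse complement, and a match is a run of letters, not a measured site.
Hist1h1c, chr13:23738557-23738806, plus strand: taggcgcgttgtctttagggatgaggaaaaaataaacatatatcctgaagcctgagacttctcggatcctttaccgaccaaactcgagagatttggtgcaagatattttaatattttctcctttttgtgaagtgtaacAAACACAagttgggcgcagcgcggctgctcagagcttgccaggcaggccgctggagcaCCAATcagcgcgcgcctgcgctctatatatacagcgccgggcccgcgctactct
Hist1h1e, chr13:23622559-23622808, minus strand: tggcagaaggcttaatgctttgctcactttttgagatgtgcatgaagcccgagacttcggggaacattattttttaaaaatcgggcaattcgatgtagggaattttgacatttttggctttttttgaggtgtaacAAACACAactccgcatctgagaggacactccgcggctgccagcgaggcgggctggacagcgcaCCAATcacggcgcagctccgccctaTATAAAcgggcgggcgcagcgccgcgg
Hist1h2ac, chr13:23683960-23684209, minus strand: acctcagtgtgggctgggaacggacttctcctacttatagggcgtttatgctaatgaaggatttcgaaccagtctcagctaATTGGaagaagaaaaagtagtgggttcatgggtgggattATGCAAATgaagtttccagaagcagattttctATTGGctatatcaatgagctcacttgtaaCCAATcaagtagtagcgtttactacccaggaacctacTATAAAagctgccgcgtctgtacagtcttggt

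Among the 61 member promoters, TATAAA occurred in 47.5%, against 12.4% of all 32851 promoters of the same length. CCAAT occurred in 82.0% of member promoters, against 33.8% of all promoters. The octamer occurred in 21.3% of member promoters, against 1.6% of all promoters, and the H1 box in 14.8%, against 6.2%. The octamer was in H2A promoters (38.9%) and H2B promoters (40.0%) and in none of the H1, H3 or H4 promoters. The H1 box was in 5 of the 6 H1 promoters. Of the 8 members that fell and had a promoter entry, 6 held TATAAA, 6 held CCAAT, 3 held the H1 box and 1 held the octamer. Of the 11 tested members that did not pass and had an entry, 6 held TATAAA, 10 held CCAAT, 0 held the H1 box and 4 held the octamer. The 3 fallen members with the H1 box were Hist1h1c, Hist1h1d and Hist1h1e, and no H1 gene was among the 11. The H1 box and the histone type cannot be told apart here, and a link between motif and fall was not tested.

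H2A and H2B form the dimers on the outside of the nucleosome core, and their genes often lie in pairs that are transcribed away from a shared promoter region. Hist1h2bc, an H2B gene, had 9.07, 7.64 and 7.01 FPKM in G9gl, against 26.8, 14.6 and 20.1 FPKM in WT. Every G9gl library was below every WT library, and the gene was 2.36-fold lower in G9gl (log2 fold change -1.24 ± 0.19 SE, limma adjusted p = 0.001414). Its partner Hist1h2ac, an H2A gene, had 1.60 FPKM in the first G9gl library and was listed at 0 in the second and the third, against 2.98, 2.79 and 1.72 FPKM in WT. Its log2 fold change was -1.33 ± 0.35 (SE, limma adjusted p = 0.02251), and with values at 0 its size depended on the pseudocount, with -1.87 at 0.5 and -3.30 at 0.1. That call was lost without the second G9gl library (adjusted p = 0.06744), the third G9gl library (0.06967), the first WT library (0.08019) or the second WT library (0.07924). The starts of Hist1h2ac and Hist1h2bc lie 251 bases apart, so the Hist1h2ac promoter printed above spans most of the stretch between the 2 genes.

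Across the clusters 14 pairs of members had divergent starts less than 1000 bases apart, 13 of them an H2A with an H2B gene, at distances of 173 to 660 bases. Both genes were tested in 3 pairs. Besides Hist1h2ac and Hist1h2bc these were Hist1h2ae with Hist1h2bg, and Hist2h2ac with Hist2h2be, and none of these 4 genes passed. Hist1h2bg, an H2B gene, was listed at 0 in the first and second G9gl libraries and had 3.85 FPKM in the third, against 2.86, 3.94 and 1.42 FPKM in WT. Its log2 fold change was -1.08 ± 0.55 (SE, limma adjusted p = 0.1877), and without the third G9gl library it was -1.84 (adjusted p = 0.002769). Hist1h2ae, its H2A partner, had a log2 fold change of -0.56 (limma adjusted p = 0.1909), and -0.83 without the first G9gl library (adjusted p = 0.04333).

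The most abundant clustered histone gene was Hist3h2a, an H2A gene of cluster 3. It had 38.6, 26.4 and 25.7 FPKM in G9gl, against 48.5, 32.7 and 50.5 FPKM in WT. The genotypes overlapped through the first G9gl and the second WT library, and the log2 fold change of -0.52 ± 0.18 (SE) did not pass (limma adjusted p = 0.06994). It passed without the first G9gl library (-0.71, adjusted p = 0.01198) or without the second WT library (-0.72, adjusted p = 0.02022). Hist3h2ba, an H2B gene of the same cluster, had 8.91, 8.07 and 5.83 FPKM in G9gl, against 19.8, 8.84 and 14.8 FPKM in WT. It was called lower by 0.80 ± 0.24 (SE) on the log2 scale (limma adjusted p = 0.04293), although 1 G9gl library lay above 1 WT library. The call was lost without the second G9gl library (adjusted p = 0.06825), the third G9gl library (0.1244), the first WT library (0.1282) or the third WT library (0.1135). An exon of Hist3h2a overlaps one of Trim17 on this annotation, and libraries of this kind keep no strand, but Trim17 was at most 0.337 FPKM in every library.

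In cluster 2, 0 of 4 tested members passed, and 1, Hist2h2be, was lower at an unadjusted p under 0.05. Hist2h2ac, the highest member of cluster 2, had 4.77, 2.36 and 6.15 FPKM in G9gl and 6.84, 6.89 and 4.65 FPKM in WT. The genotypes overlapped, and its log2 fold change was -0.44 (95% confidence interval -1.02 to 0.13, limma adjusted p = 0.2418). Hist2h2be, known in mouse for an H2B variant of olfactory neurons, had 3.31, 1.41 and 3.39 FPKM in G9gl and 4.66, 4.19 and 4.81 FPKM in WT. Every G9gl library was below every WT library, and its log2 fold change of -0.63 ± 0.21 (SE) missed the threshold (limma adjusted p = 0.06139). It passed without the first G9gl library (adjusted p = 0.03633) or the third (0.0447). Over all H2B genes the sum was 25.3, 24 and 24.9 FPKM in G9gl, against 56.1, 35.4 and 44.1 FPKM in WT, 45.2% lower in G9gl and without overlap. The H2A sum was 57.2, 33.9 and 36.9 FPKM in G9gl, against 71.5, 51.2 and 66.9 FPKM in WT, 32.5% lower in G9gl, with the first G9gl library above the second WT library.

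**Figure D2:**
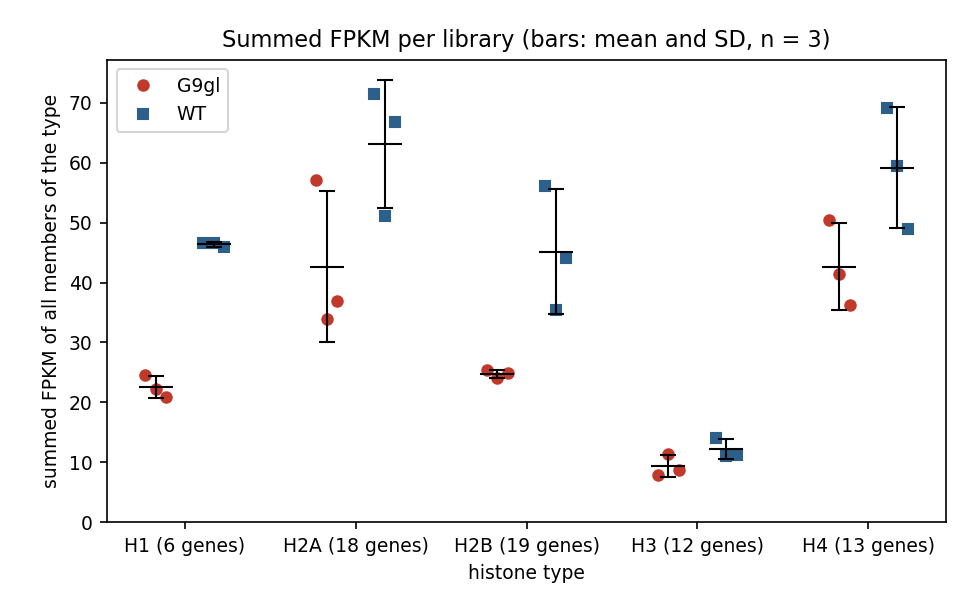
Summed FPKM of all members of each histone type, 1 point per library, G9gl (circles) left of WT (squares), with horizontal bars for the mean and whiskers for the SD over 3 libraries. The H1 sums of 20.95 to 24.5 FPKM in G9gl lie below 45.9 FPKM, the lowest WT value, and the genotypes are also apart for H2B, while H2A, H3 and H4 have overlapping libraries.

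H4 pairs with H3 at the centre of the nucleosome, and all H4 genes encode the same protein. Hist1h4d had 7.41, 13.96 and 7.25 FPKM in G9gl, against 27.5, 18.1 and 17.4 FPKM in WT. The libraries did not overlap, and it was 2.13-fold lower in G9gl (log2 fold change -1.09 ± 0.24 SE, limma adjusted p = 0.009958). Hist1h4h had 2.02, 1.83 and 0.552 FPKM in G9gl and 3.26, 3.002 and 4.87 FPKM in WT. It fell by 0.97 ± 0.26 (SE) on the log2 scale (limma adjusted p = 0.02337), a call lost without the first WT library (adjusted p = 0.05234) or the third (0.08342). Hist1h4i had 9.59, 4.86 and 5.87 FPKM in G9gl and 12.0, 10.6 and 10.2 FPKM in WT. It fell by 0.67 ± 0.19 (SE) on the log2 scale (limma adjusted p = 0.03327), and leaving out any library but the first of G9gl ended the call (adjusted p of 0.06538 to 0.1048).

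Of the 6 tested H4 genes 3 did not pass. Hist1h4c, after Hist3h2a the member with the highest mean, had 22.7, 16.5 and 13.9 FPKM in G9gl, against 19.9, 18.7 and 11.3 FPKM in WT. Its log2 fold change was 0.09 (95% confidence interval -0.39 to 0.58, limma adjusted p = 0.7874), so a fall of the size seen for Hist1h4d lies outside the interval. Its sign was not stable, at -0.03 after rescaling to a fixed sum, -0.10 after removal of the GC content and length trend, -0.09 without the first G9gl library and -0.15 without the third WT library. Hist2h4 had 2.68, 1.81 and 4.37 FPKM in G9gl and 2.43, 5.25 and 1.43 FPKM in WT, with wide overlap (limma adjusted p = 0.9567). Hist1h4m had a log2 fold change of -0.54 (limma adjusted p = 0.1729), and -0.87 without the third G9gl library (adjusted p = 0.01337). Hist4h4, the lone member of cluster 4, had 0.496, 1.35 and 0.541 FPKM in G9gl and 0.914, 1.47 and 0 FPKM in WT, and was not tested. The H4 sum was 50.5, 41.4 and 36.2 FPKM in G9gl and 69.1, 59.5 and 49.0 FPKM in WT, 27.9% lower in G9gl with 1 overlapping library.

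Of the 5 tested H3 genes 0 passed, and Hist1h3i alone had an unadjusted p under 0.05. Hist1h3e, the highest H3 member, had 0.86, 4.29 and 4.22 FPKM in G9gl and 7.18, 4.70 and 4.61 FPKM in WT. All G9gl values were below all WT values, but 2 of them only narrowly, and the log2 fold change was -0.78 ± 0.36 (SE, limma adjusted p = 0.1504). Hist1h3i went the other way, with 3.66, 1.84 and 2.22 FPKM in G9gl and 1.14, 1.62 and 1.31 FPKM in WT. It was the only tested member with every G9gl library above every WT library, a pattern that 20.3% of all genes tested showed, and its log2 fold change of 0.57 ± 0.19 (SE) missed the threshold (limma adjusted p = 0.05883). Without the second G9gl library it was 0.72 (adjusted p = 0.03767). Its coding sequence shares 87.6% of its windows of 50 bases with other genes, so its reads cannot be assigned to this copy with certainty. The H3 sum was 7.83, 11.3 and 8.72 FPKM in G9gl and 14.1, 11.1 and 11.3 FPKM in WT, 23.5% lower in G9gl with overlap. Differences between histone types were not tested.

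The 45 members that were not tested had very low values, and their sum ran the other way. They summed to 12.88 ± 3.23 FPKM in G9gl and 9.81 ± 0.91 FPKM in WT (SD, n = 3 each), with values of 15.81, 13.42 and 9.42 FPKM in G9gl against 9.62, 9.02 and 10.8 FPKM in WT, so that the genotypes overlapped. The 9 members that fell summed to 55.18 ± 8.01 FPKM in G9gl and 117.86 ± 17.23 FPKM in WT, and the 14 tested members that did not pass summed to 73.9 ± 12.81 FPKM in G9gl and 98.43 ± 10.92 FPKM in WT. The first split was made by the filter, which 5 members met through their WT libraries alone and 0 through their G9gl libraries alone. The sum of the untested members is therefore a description. The members that fell were chosen by this contrast, and their sum is a description too. The highest value of an untested member was 3.96 FPKM, for Hist1h4f in the first G9gl library, and Hist1h4f was listed at 0 in the other 5 libraries. Among the 28 untested members above 0 in some library, 5 had every G9gl library below every WT library. In 4 of the 28 every G9gl library was above every WT library. Over all genes tested, every G9gl library was below in 20.5% and above in 20.3%. The untested members are not part of those shares, so their counts are a description.

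With no filter on low values, 3 of these members were called higher in G9gl and 2 lower. Of all 19079 genes in that fit, 968 were called higher and 785 lower. Genes above 0 numbered 15673, 16187 and 14823 in the G9gl libraries and 13467, 13789 and 14908 in the WT libraries. The part of this difference in the members listed at 0 in WT was not tested. Hist1h2ag had 0.852, 0.386 and 0.93 FPKM in G9gl and Hist1h3c 0.412, 0.373 and 0.899 FPKM, and both were listed at 0 in all WT libraries. Hist1h2be had 0.947, 1.2 and 1.03 FPKM in G9gl and 0.316, 0.644 and 0.306 FPKM in WT. An exon of Hist1h2be overlaps one of Hist1h1e, which fell in G9gl, and the effect of this overlap on the values was not tested. Hist1h2bp was listed at 0 in all G9gl libraries and had 0.424, 0.908 and 0.295 FPKM in WT. Hist1h2ab had 0.372, 0.338 and 0.406 FPKM in G9gl and 0.696, 0.742 and 0.798 FPKM in WT. Multiplied by the estimated depth, the Hist1h2ab values were 1 to 1.04 times the smallest in G9gl and 1.91 to 2.03 times the smallest in WT, as single and doubled units of 1 small count would give. Such values rest on very few fragments.

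Levels were higher for members with a long annotated 3′ end, which is a description with no test. Of the 23 members whose annotated transcript runs at least 100 bases past the stem-loop, 14 (60.9%) were tested, and their mean FPKM over the 6 libraries had a median of 1.69. Of the 23 members that end less than 100 bases past the stem-loop, 4 (17.4%) were tested, and the median was 0.271 FPKM. In 6 further members no stem-loop was found, among them Hist1h2bc and Hist2h2be, and 3 of these 6 were tested. The annotation gave no 3′ end for 15 members, of which 2 were tested, and Hist3h2bb-ps is a pseudogene. Past the stem-loop, tested members had a median of 411.5 annotated bases (3 to 4884) and members not tested 40.0 bases (3 to 2445). Of the 9 members that fell, 7 run at least 100 bases past the stem-loop and 1 (Hist1h4h, 46 bases) ends sooner. For 1 (Hist1h2bc) none was found in the annotated 3′ end. Of all 23 tested members 14 run at least 100 bases past it, so that 7 of these 14 fell, where 11.6% of all genes tested were called lower. A link between the annotated end and the fall was not tested.

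**Figure D3:**
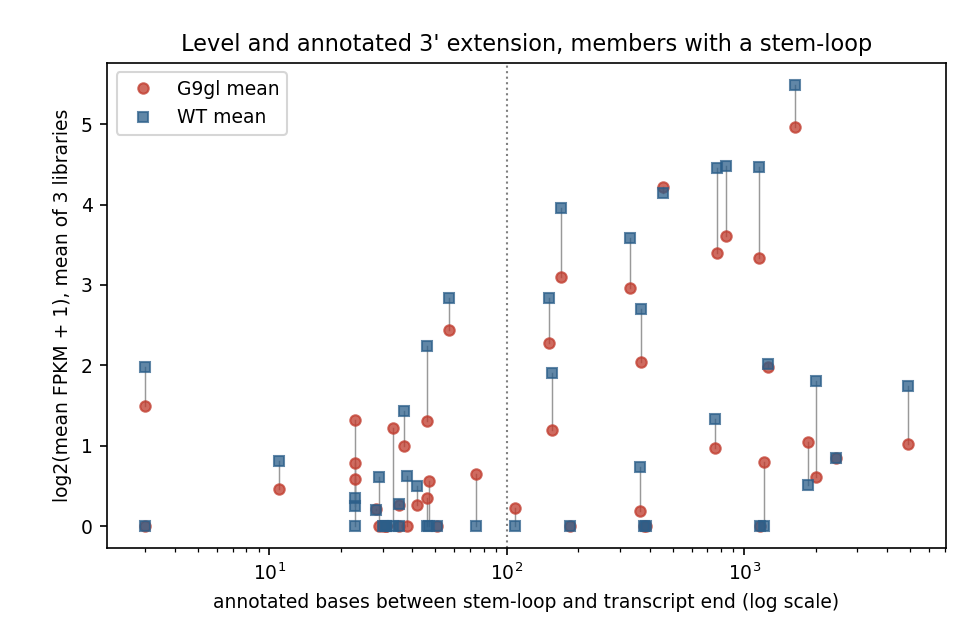
Mean level of each member with a stem-loop, as log2(mean FPKM + 1) over 3 libraries, against the annotated bases between stem-loop and transcript end on a log scale, with a grey line joining the G9gl mean (circle) and the WT mean (square) of a gene. The dotted line is at 100 bases, and every member with a mean above 7 FPKM in either genotype lies to its right, with Hist3h2a highest.

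Transcript copies that share sequence limit what can be said of single genes. Windows of 50 bases that also occur in other genes made up a median of 22.1% (2.3 to 45.8%) of the transcripts of the 9 members that fell and 49.6% (0 to 100%) of the other tested members. The median was 82.8% for the members listed at 0 in all libraries. How the authors' counting split reads between such copies is not given in the sources used here. Hist1h1d (2.3%) and Hist1h1c (8.5%) shared least among the members that fell, and Hist1h4h shared most (45.8%).

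By position, most of the level in both genotypes lay in 1 stretch of chromosome 13, and differences between positions were not tested. Cluster 1 is split into 4 runs of members, of which the longest spans 233.4 kb (chr13:23531050-23764406) with 29 members. In that run 13 members were tested and 7 fell, against 11.6% called lower among all genes tested. All 5 members that met the filter through their WT libraries alone lie in this run, so its count is a description. The members of the run summed to 75.01 ± 8.47 FPKM in G9gl and 130.26 ± 18.66 FPKM in WT. The run of 18 members over 121.8 kb (chr13:21715763-21837530) had 3 tested members, 0 that fell, and sums of 6.91 ± 2.56 FPKM in G9gl and 9.07 ± 1.92 FPKM in WT. A run of 5 members over 8.5 kb (chr13:22035164-22043676) held Hist1h4i, and a pair at chr13:23933773-23934851 was listed at 0 throughout. Cluster 2 on chromosome 3 (chr3:96219865-96270132) summed to 12.28 ± 3.14 FPKM in G9gl and 16.31 ± 2.03 FPKM in WT, and cluster 3 on chromosome 11 (chr11:58948920-58956830) to 37.97 ± 8.75 FPKM in G9gl and 58.52 ± 14.44 FPKM in WT. Of 54 other symbols between the outermost members on chromosome 13, 2 were tested, and their log2 fold changes were -0.06 and 0.0047. Hfe, an iron-regulating gene and the one other gene of the tables inside a run, was below 1 FPKM in every library.

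**Figure D4:**
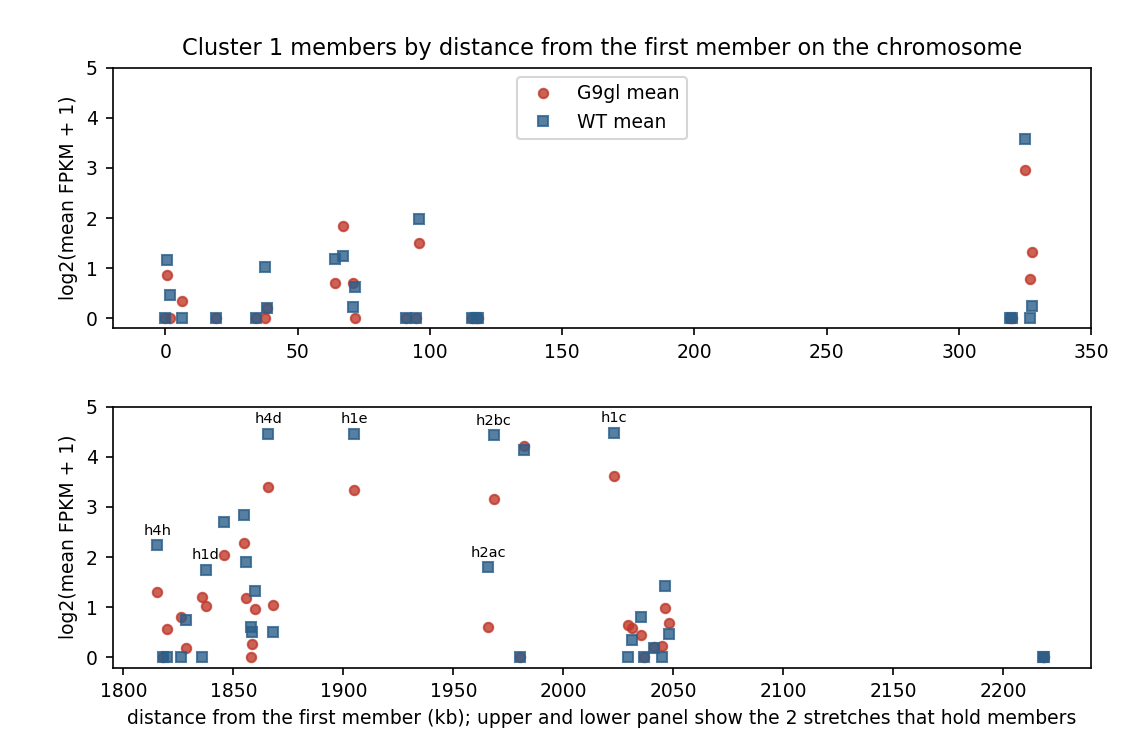
Mean levels of the cluster 1 members as log2(mean FPKM + 1) against distance in kb from the first member on chromosome 13, with G9gl circles and WT squares, in 2 panels for the 2 stretches that hold members. The 7 members that fell in the 233.4 kb run are labelled in the lower panel without the prefix Hist1, Hist1h4i is the high pair at the right of the upper panel, and the means of Hist1h4c, next to Hist1h2bc, nearly coincide.

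Replacement histone transcripts were far more abundant than clustered ones. Clustered transcripts made up 6.69, 6.12 and 5.72% of the summed FPKM of both classes in G9gl and 8.52, 8.09 and 8.25% in WT. Of 11 replacement histone genes 8 were tested, 3 fell, 0 rose (0 at an unadjusted p under 0.05 as well) and 5 did not pass, with a median log2 fold change of -0.20. Among all genes tested, 11.6% were called lower and 11.8% higher. H2afj fell to 37.2 ± 0.85 FPKM in G9gl, against 45.9 ± 1.62 FPKM in WT (limma adjusted p = 0.007267). H3f3a, one of the genes for the H3 variant of transcribed chromatin, fell to 1123 ± 49.0 FPKM in G9gl, against 1368 ± 145 FPKM in WT (limma adjusted p = 0.0237). H2afx, whose protein is phosphorylated at DNA breaks, fell to 35.9 ± 1.54 FPKM in G9gl, against 43.2 ± 2.53 FPKM in WT (limma adjusted p = 0.02429). H3f3b averaged 517.9 ± 98.2 FPKM in G9gl and 624.5 ± 68.5 FPKM in WT (limma adjusted p = 0.1301), and H2afz averaged 222.7 ± 16.7 FPKM in G9gl and 204.6 ± 31.6 FPKM in WT (limma adjusted p = 0.4055). H1f0, the replacement linker histone, averaged 0.906 FPKM in G9gl and 1.19 FPKM in WT and was not tested. Without the third G9gl, the first WT or the third WT library 1 replacement histone was called lower.

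Among genes that make and remove histone mRNA, calls in both directions lay near the shares over all genes tested (11.8% higher, 11.6% lower). Of 41 tested genes for histone gene transcription, 3′ end processing and decay, 7 rose and 4 fell, with a median log2 fold change of -0.02. Slbp, the stem-loop binding protein, rose to 82.5 ± 4.01 FPKM in G9gl, against 68.3 ± 4.62 FPKM in WT (log2 fold change 0.27, limma adjusted p = 0.01798). Pou2af1, the B cell coactivator of Oct factors, rose to 210.3 ± 4.98 FPKM in G9gl, against 151.2 ± 2.76 FPKM in WT (log2 fold change 0.47, limma adjusted p = 0.0001614). Pou2f2, the Oct factor of B cells, fell to 34.3 ± 4.01 FPKM in G9gl, against 43.2 ± 1.92 FPKM in WT (limma adjusted p = 0.02214). Snrpg and Snrpb, Sm proteins that the U7 particle shares with splicing particles, also rose, and Cpsf4, Upf1 and Zcchc11 fell. Npat, which activates histone genes at the start of S phase, averaged 4.90 ± 0.26 FPKM in G9gl and 4.87 ± 0.09 FPKM in WT (limma adjusted p = 0.9624). Casp8ap2, also needed for histone gene expression, averaged 7.16 ± 0.64 FPKM in G9gl and 7.94 ± 0.93 FPKM in WT (limma adjusted p = 0.437). Rescaled to a fixed sum per library, which moved the median of all tested genes to -0.13, this list had 1 gene called higher and 8 called lower. Without the second G9gl library 3 were called higher and 0 lower, without the third 4 and 1, without the second WT library 3 and 1, and without the third WT library 5 and 1.

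Of 34 genes for histone chaperones and histone import, 3 rose, 3 fell and 28 did not pass, with a median log2 fold change of 0.07. The share that fell, 8.82%, was below that over all genes tested (11.6%), and as many rose, where 11.8% of all genes did. Nasp, a chaperone that guards soluble H3 and H4, rose to 19.6 ± 0.75 FPKM in G9gl, against 14.9 ± 1.52 FPKM in WT (limma adjusted p = 0.01343). Npm1 and Chaf1a, a subunit of the factor that places H3 and H4 on new DNA, also rose, while Set, Anp32e and Dnajc9 fell. Rescaled to a fixed sum, 1 was called higher and 6 lower. Without the second G9gl or the first WT library 0 were called lower, without the third G9gl, the second WT or the third WT library 1, and without the second WT library 1 was called higher.

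The cell cycle genes that passed mostly rose. Of 49 tested genes for DNA replication and S phase, 12 rose, 2 fell and 35 did not pass, with a median log2 fold change of 0.18, against 11.8% higher and 11.6% lower over all genes tested. Gins2, part of the replicative helicase, rose to 6.11 ± 0.39 FPKM in G9gl, against 3.04 ± 0.13 FPKM in WT (log2 fold change 0.82, limma adjusted p = 0.000601). Pcna, the sliding clamp of DNA polymerases, rose to 83.2 ± 4.01 FPKM in G9gl, against 67.5 ± 2.496 FPKM in WT (limma adjusted p = 0.006809). Mcm5, a helicase subunit, rose to 30.5 ± 1.43 FPKM in G9gl, against 25.5 ± 1.17 FPKM in WT (limma adjusted p = 0.03222). Rfc2 and Dbf4 rose as well. The 2 that fell were Pold1, the catalytic subunit of DNA polymerase delta, at 60.2 ± 4.06 FPKM in G9gl against 92.0 ± 6.54 FPKM in WT (limma adjusted p = 0.000448), and E2f2 (limma adjusted p = 0.004898). Rescaled to a fixed sum, 7 were called higher and 4 lower.

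Of 17 tested genes of G2 and mitosis 9 rose, 0 fell (0 at an unadjusted p under 0.05 as well) and 8 did not pass, with a median log2 fold change of 0.48. Over all genes tested, 11.8% were called higher and 11.6% lower. A low gene can meet the filter through its G9gl libraries alone, and such genes were not counted for this list. Its counts and median are therefore a description. Top2a, the topoisomerase of dividing cells, rose to 4.23 ± 0.99 FPKM in G9gl, against 1.66 ± 0.12 FPKM in WT (log2 fold change 0.96, limma adjusted p = 0.002292). Birc5, needed for chromosome segregation, rose to 5.80 ± 1.98 FPKM in G9gl, against 1.26 ± 0.80 FPKM in WT (log2 fold change 1.61, limma adjusted p = 0.002333), and Ube2c rose too. Mki67, a proliferation marker, had 0.939, 1.71 and 1.26 FPKM in G9gl and 0.389, 0.279 and 0.357 FPKM in WT and was not tested. Levels of this list were low in both genotypes, and without the second G9gl library 3 genes were called higher, without the third 5, and without the first or the second WT library 4. No test of the difference between lists was made.

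**Figure D5:**
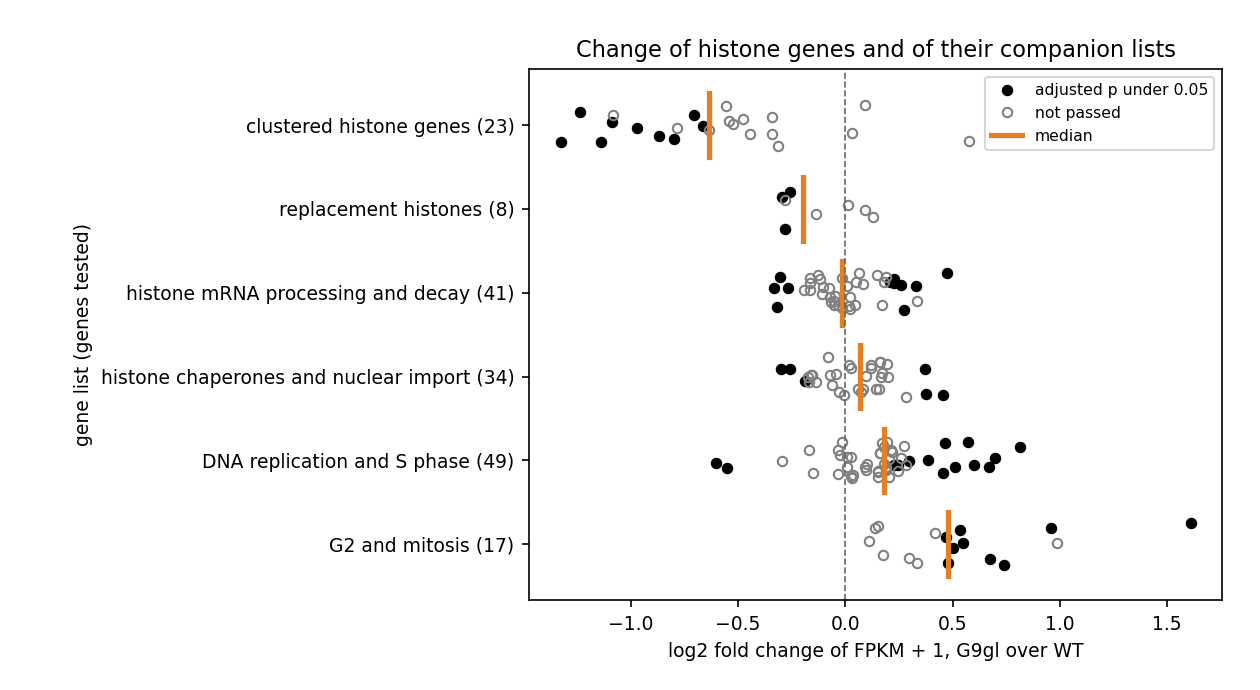
Log2 fold change of FPKM + 1, G9gl over WT, for every tested gene of the clustered histone genes and of 5 lists of related genes, 1 point per gene, filled where the limma adjusted p is under 0.05, with an orange bar at the list median. The medians run from -0.63 for clustered histone genes through -0.20 for replacement histones to 0.48 for genes of G2 and mitosis.

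Transcripts of other cell types also differed between the genotypes. The shares to set beside the counts of calls are 11.8% higher and 11.6% lower among all genes tested. Of 18 macrophage and monocyte markers 11 were tested and 9 were higher in G9gl, with sums of 59.46 to 65.85 FPKM in G9gl and 24.23 to 30.33 FPKM in WT, while 6 of them (Cd14, Mertk, Marco, Itgam, Fcgr1 and Ccr2) were under 1 FPKM in every library. NK cell markers summed to 9.42 to 13.62 FPKM in G9gl and 3.36 to 6.07 FPKM in WT, with 3 of 10 tested, all 3 higher, and Klre1 at 0. Neutrophil markers summed to 15.27 to 35.25 FPKM in G9gl and 2.27 to 8.2 FPKM in WT, with 1 of 2 tested genes higher. Erythroid markers summed to 116.06 to 341.35 FPKM in G9gl and 68.4 to 78.88 FPKM in WT, with 2 of 3 higher. Dendritic cell markers summed to 63.92 to 70.29 FPKM in G9gl and 44.34 to 54.5 FPKM in WT, with 2 of 3 higher and Clec10a at 0. Most of that sum was Bst2, at 61.8 FPKM in G9gl and 46.1 FPKM in WT, a gene that many cell types express, and the rest summed to 3.37 to 5.34 FPKM in G9gl and 1.8 to 2.14 FPKM in WT. T cell markers summed to 313.8 to 330.43 FPKM in G9gl and 329.84 to 352.9 FPKM in WT, with 0 of 5 called and log2 fold changes of -0.10 to 0.41. Nearly all of that sum was Cd2, which B cells also express, at 310.8 FPKM in G9gl and 333.5 FPKM in WT, and the other 11 genes summed to 8.85 to 10.09 FPKM in G9gl and 5.29 to 8.97 FPKM in WT. Plasma cell and germinal centre markers summed to 219.2 to 228.96 FPKM in G9gl and 202.03 to 218.2 FPKM in WT, with 5 of 8 higher and 2 lower. B cell identity genes, by which the labelled cell type was checked, were abundant in all libraries, at 8059 to 8434 FPKM in G9gl and 8761 to 9057 FPKM in WT, with 2 of 11 higher and 5 lower. Markers under 1 FPKM in every library also numbered 6 for NK cells, 7 for dendritic cells and 5 for T cells. They numbered 3 for neutrophils, 3 for erythroid cells and 4 for plasma cells and germinal centres. The part of these other cell types' transcripts in the histone result was not tested.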

How the data were processed

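RNA of sorted splenic Fo B cells was sequenced in 6 libraries, 3 G9gl and 3 WT, assigned by genotype and title in the labels. Per the labels' protocols, Trizol RNA was turned into full-length cDNA with SMART-Seq HT and into libraries with Nextera, both unstranded. The submitters' processing notes name Cufflinks 2.2.1, Bowtie2 2.2.3, TopHat2 2.0.13, SAMtools 0.1.19 and the build mm10. Per gene symbol, the authors deposited 1 FPKM value for each library. FPKM divides by transcript length and by mapped fragments, and no counts were used. Depth was estimated from the FPKM step of 1 fragment in transcripts of at least 1500 bases. The annotation, and how reads that match several genes were handled, are not given in the sources used. Immunoglobulin genes were not analysed here.

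From the deposited FPKM, log2(FPKM + 1) was fitted under R 4.3.3 with limma 3.58.1, using lmFit and a trended eBayes, and genotype was the only term. A gene entered if 3 or more libraries reached 1 FPKM, which left 10122, with p-values adjusted by Benjamini-Hochberg over all of them. Fold changes are on that scale, which understates the change of low genes. The fit was tested on simulated data. Values in every library are given for each member that passed, the 6 highest members and the highest member of each type and cluster. Other members described, among them those that missed the threshold narrowly or passed only under an alternative, were chosen after their values were seen. From the related lists, up to 3 genes with the smallest p in each direction and a fixed set are named. Genes of these lists and of the marker lists can meet the filter through 1 genotype alone, so their counts and medians are a description. The members, lists and tests were chosen with earlier results of these data known. Alternatives were pseudocounts of 0.1 and 0.5, other filters, quantile normalization, median-ratio scaling, rescaling to TPM, library weights, a replicate block, leaving out each library and, added after seeing the data, removal of a trend on GC content and length, which 96.2% of tested genes had. Stem-loops, transcript windows and positions came from GENCODE vM21 (GRCm38), promoters from RefSeq, matched by symbol or synonym.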

Additional observations from a re-analysis of the deposited data

How the results depend on the processing

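Under 16 alternatives the number of clustered histone genes called lower in G9gl, 9 in the fit reported, was 8 to 11 with each pseudocount, filter on the mean, scaling, weighting and trend removal, and 5 with no filter on low values. Leaving out single libraries gave 5 to 11 lower and 0 to 1 higher. Called higher were 3 members with no filter on low values, where 968 of all 19079 genes were, and 1, Hist1h3i, after removal of the GC content and length trend. Hist1h1e, Hist1h1c and Hist1h2bc passed in all 16, with adjusted p of at most 0.003547, 0.004578 and 0.01536. Hist1h4d passed in 15, Hist1h4h in 13, Hist1h2ac in 11, Hist1h4i and Hist3h2ba in 10 and Hist1h1d in 8, with adjusted p of up to 0.05744, 0.09623, 0.09024, 0.1178, 0.1457 and 0.1278 in that order. No call on a member changed direction. The log2 fold change of Hist1h4c, which was not called, was below 0 in 4 alternatives, and that of Hist1h2ac moved with the pseudocount, to -1.87 at 0.5 and -3.30 at 0.1. The log2 ratio of summed FPKM, G9gl over WT, was -0.67, with -0.80 after rescaling to TPM, -0.71 without Hist3h2a and -0.80 to -0.57 without single libraries. Rescaling to TPM moved the median log2 fold change of all tested genes to -0.13, so changes under it are read relative to that shift. It called 730 genes higher and 2493 lower, against 1191 and 1174 in the fit reported. Under it the balance of the histone mRNA processing list turned to 1 higher and 8 lower, against 7 and 4, and that of the chaperone list to 1 and 6, against 3 and 3. The processing list had 4 genes called higher under quantile normalization, and 4 higher and 1 lower after trend removal. The chaperone list had 5 called higher under median-ratio scaling, library weights or trend removal, and with no filter 1 gene was called lower in each of these lists. The libraries were not treated as paired by replicate number. Deviations of same-numbered libraries correlated at 0.10, -0.07 and 0.02, and those of differently numbered libraries at -0.15 to 0.16. So few libraries cannot settle whether the numbers pair them. With the number as a replicate block 11 members were lower and 0 higher. Members below about 1 FPKM rest on few fragments, which limits their precision.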
